A study of Mus musculus with 3 samples.

Results

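The cells described here are lymph node (LN) reticular cells gated on Fmod and Ccl21a RNA, the pair of genes that marks the T-B border reticular cell (TBRC), a fibroblast lying where the B cell follicle meets the T zone. Of 5486 deposited cell barcodes, 2243 held at least 200 genes, at most 10% of their unique molecular identifiers (UMIs) from mitochondrial genes, and no UMI of 13 genes of haematopoietic, endothelial, epithelial and glial cells. Of these retained barcodes, 159 (7.09%, exact binomial 95% interval 6.06 to 8.23) carried Fmod, had at least 0.2% of their UMIs from Ccl21a, and had no UMI of Cr2, Madcam1 or Tnfsf11. The cells were thus chosen by their measured Fmod, Ccl21a, Cr2, Madcam1 and Tnfsf11 RNA. They are called TBRC-like cells, and the other 2084 retained barcodes serve as the comparison.

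The study profiled single stromal cells from LNs of C57BL/6 mice carrying a Cxcl13-Cre/tdTomato transgene, and all libraries share this genotype. Live, podoplanin+, CD31-, CD45-, TdTomato+ cells were sorted from digested LNs pooled from several mice and loaded on a droplet platform. In the 2-IC group (2 libraries), mice had received an antigen-immune complex (IC) 7 days and another 24 hours before collection, and in the 1-IC group (1 library) a single IC 24 hours before. These groups follow the sample titles, with which the short descriptions of the 2-IC libraries conflict. No library analysed here came from mice without IC. The sort on TdTomato limits the cells to those in which this transgene was active, so border cells without it are not represented. The labels name the 2-IC libraries as separate samples but do not say which mice went into which. The fits carry a library term, except where it is said to be left out. Their p-values thus measure only how the difference within a library varied between libraries, with the spread shared across genes. That variation may be partly technical.

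The 2-IC replicate 1 library held 108 TBRC-like cells among 1526 retained barcodes (7.08%, 5.84 to 8.48), 2-IC replicate 2 held 38 among 391 (9.72%, 6.97 to 13.1), and the 1-IC library 13 among 326 (3.99%, 2.14 to 6.72). The 1-IC share was the lowest, with an interval overlapping that of 2-IC replicate 1 and lying below that of 2-IC replicate 2. With 1 library in the 1-IC group the shares were not tested. Depth differed between libraries, with 20607903, 12788101 and 3766526 UMIs over all deposited barcodes in this order. The median TBRC-like cell held 6436, 19361.5 and 6677 UMIs against 4573.5, 14207 and 5875 in the other barcodes. The Fmod requirement favours deep barcodes, so each barcode was also thinned to 2000 UMIs and gated again. The shares were then 4.97% (3.86 to 6.30), 5.78% (3.57 to 8.79) and 3.69% (1.78 to 6.68), with overlapping intervals. Summed over TBRC-like cells the libraries gave 779844, 738000 and 99881 UMIs, so a gene at 0 can lie at up to 3.85, 4.07 and 30.0 CPM, the level of 3 UMIs, where CPM is the usual count of a gene scaled to the summed UMIs of the cells. The 2-IC libraries shared 76 barcode sequences, in which one library was deeper by a median factor of 52.5, and 1 TBRC-like cell in each 2-IC library was among them. Leaving shared barcodes out gave shares of 7.21%, 9.97% and 4%.

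Reticular cells are the fibroblasts that build the LN scaffold and divide it into zones by secreting chemokines. T zone reticular cells secrete CCL19 and CCL21, ligands of CCR7 that draw in T cells and dendritic cells, whereas follicular stroma secretes CXCL13, the ligand of CXCR5 that draws in B cells. The border between them is crossed by activated B cells and by T cells on their way to help them. Fmod encodes fibromodulin, a small leucine-rich proteoglycan that binds collagen fibrils. Cr2, the complement receptor that follicular dendritic cells (FDCs) use to hold ICs, Madcam1, of marginal reticular cells, and Tnfsf11, the cytokine RANKL of marginal and interfollicular reticular cells, served here as genes that a TBRC-like cell must lack.

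In the GRCm38 build, Fmod occupies chr1:134037254-134048277 on the plus strand, and Ccl21a (chr4:42772860-42773993) and Ccl19 (chr4:42754525-42756577) are neighbours on the minus strand, 16282 bases apart. The sequences around their RefSeq start sites, 250 bases before to 50 after, are shown for these 3 genes and for Hpgd (chr8:56294585-56321043, plus strand), a gene that the gate did not use and that was higher in TBRC-like cells in every library. They come from RefSeq (GRCm38.p6), written 5′ to 3′ on the gene's own strand. The gene positions above are from GENCODE, whose outermost start differs from the RefSeq start for Ccl21a, Ccl19 and Hpgd, so those windows are not set on the positions given. Capitals mark TATAAA, which 13.6% of the 32851 promoters of this length hold on either strand. An NF-kappaB consensus, held by 4.51% of them, was searched as well and is in none of the 4. The windows are chr1:134037004-134037303 for Fmod, chr4:42773942-42774241 for Ccl21a, chr4:42756316-42756615 for Ccl19 and chr8:56294302-56294601 for Hpgd.
Fmod: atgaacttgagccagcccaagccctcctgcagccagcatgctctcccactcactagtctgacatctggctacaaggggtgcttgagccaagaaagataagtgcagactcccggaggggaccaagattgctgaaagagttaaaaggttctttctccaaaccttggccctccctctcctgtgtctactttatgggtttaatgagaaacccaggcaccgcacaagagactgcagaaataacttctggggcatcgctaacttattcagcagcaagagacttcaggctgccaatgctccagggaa
Ccl21a: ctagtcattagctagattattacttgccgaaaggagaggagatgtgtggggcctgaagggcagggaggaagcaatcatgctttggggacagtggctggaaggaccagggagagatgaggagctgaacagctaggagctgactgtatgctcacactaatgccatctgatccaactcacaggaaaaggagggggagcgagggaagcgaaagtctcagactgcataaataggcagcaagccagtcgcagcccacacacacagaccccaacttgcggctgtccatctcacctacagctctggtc
Ccl19: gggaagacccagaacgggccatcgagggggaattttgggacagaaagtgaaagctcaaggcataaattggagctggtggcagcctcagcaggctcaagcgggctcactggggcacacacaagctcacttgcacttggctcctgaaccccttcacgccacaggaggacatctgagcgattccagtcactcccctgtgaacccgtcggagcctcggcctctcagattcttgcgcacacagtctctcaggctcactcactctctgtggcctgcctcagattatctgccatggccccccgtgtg
Hpgd: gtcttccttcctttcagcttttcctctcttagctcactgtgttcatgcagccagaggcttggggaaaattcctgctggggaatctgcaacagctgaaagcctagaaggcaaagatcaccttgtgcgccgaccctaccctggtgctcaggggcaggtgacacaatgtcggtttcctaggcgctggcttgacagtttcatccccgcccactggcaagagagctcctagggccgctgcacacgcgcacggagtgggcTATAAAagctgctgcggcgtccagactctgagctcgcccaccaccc
The letters TATAAA occur in the Hpgd window and in none of the other 3. A match or its lack in so short a window says nothing of which factors act there.

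The gate chose the cells by their Fmod and Ccl21a values, which are therefore given without a test. Ccl21a took between 0.212% and 7.61% of a cell's UMIs, with a median of 1.02%. The library medians were 0.992%, 1.09% and 1.61% for the first and second 2-IC replicate and then the 1-IC library (this order is kept below). Fmod was sparse: 71 of the 159 cells carried 1 UMI, 30 carried 2 and 58 carried 3 or more, up to 14. At the threshold, 15 cells lay between 0.2% and 0.3% Ccl21a and 14 Fmod+ barcodes lay just outside, between 0.1% and 0.2%, the highest at 0.193%. Another 51 barcodes met both Fmod and Ccl21a requirements and were left out for a UMI of Tnfsf11 (44), Cr2 (7) or Madcam1 (3). Ccl21a has near-identical copies in the genome. Ccl21b, Ccl21c and 3 further copies were listed at 0 UMIs and Gm21541 at 12, 3 and 0 in these cells, so the Ccl21a counts may hold reads of any copy.

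**Figure D1:**
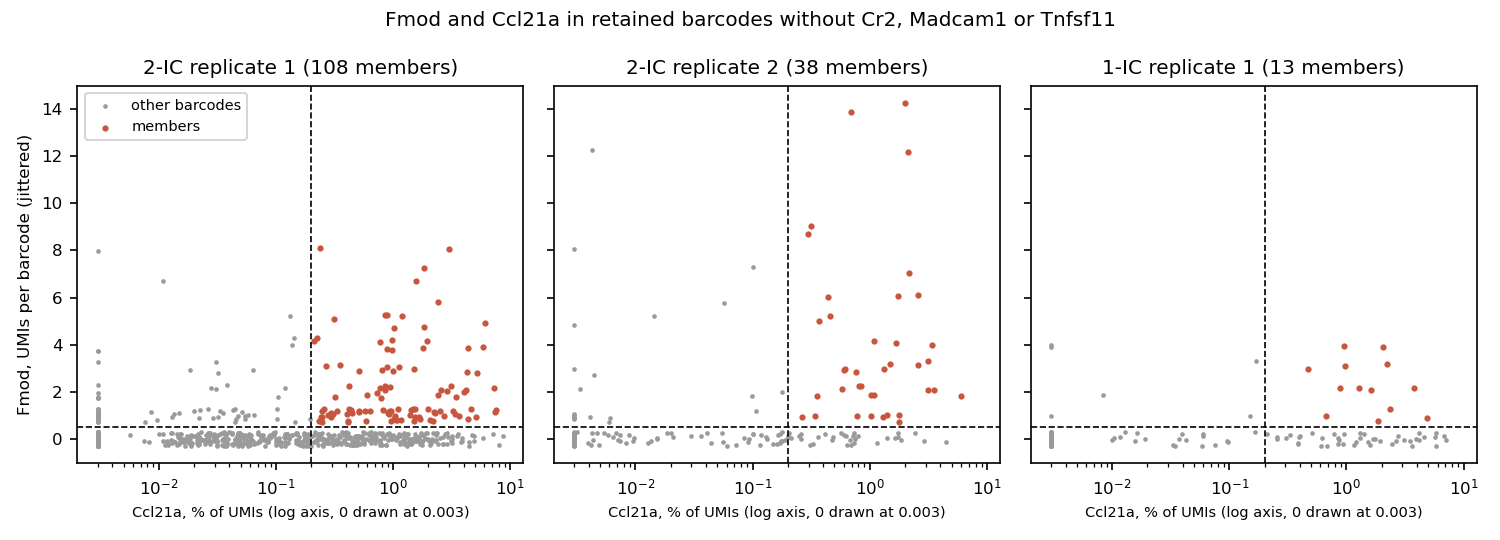
Each point is a retained barcode without Cr2, Madcam1 or Tnfsf11 UMIs, with Ccl21a as a percentage of its UMIs on the x axis (log scale, 0 drawn at the left edge) and Fmod UMIs on the y axis (jittered), one panel per library. Dashed lines mark the gate (0.2% and 1 UMI), red points are the 108, 38 and 13 TBRC-like cells, and grey points are other barcodes.

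The 3 further marker genes that the gate did not use were all higher in TBRC-like cells than in the other barcodes, in every library. Ccl19 stood at 2943, 2371 and 3915 CPM against 1616, 1299 and 2163 CPM, with all 3 TBRC-like values above all 3 others. The log2 fold change was 0.80 ± 0.08 (SE, edgeR quasi-likelihood test on counts summed per library, adjusted p = 9.78e-06, n = 3 libraries a side). Stmn2, encoding stathmin-2, a microtubule-binding protein best known from neurons, stood at 217, 164 and 70.1 CPM against 38.9, 27.2 and 24.4 CPM, and the groups did not overlap (2.43 ± 0.16, adjusted p = 2.27e-07). The 1-IC value rested on 7 UMIs. Adamts5, encoding a protease that cleaves aggrecan and other proteoglycans, stood at 228, 256 and 210 CPM against 56.7, 79.9 and 42.7 CPM, again without overlap (1.86 ± 0.14, adjusted p = 7.61e-07). Adamts5 and Stmn2 passed the test under all 16 alternative settings, and Ccl19 under 13 of 16. Ccl19 missed it without the library term (adjusted p = 0.744), after thinning (0.162), and against barcodes with Ccl21a but no Fmod (0.994). A Ccl19 pseudogene, Ccl19-ps1, was also counted, so the reads of Ccl19 and its copy are uncertain in their split. By these markers the data do not go against the name TBRC. T zone reticular cells also express Ccl19 and Ccl21a, and no test here tells TBRCs from them. The files hold no position in the tissue.

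Markers of other cell types were summed in TBRC-like cells, with low totals for endothelium, T cells, Schwann cells and epithelium and higher ones for B cell and perivascular genes. The lists hold genes that the rule sets to 0 (Lyve1, Egfl7, Cldn5, Ly6c1, Cd3d, Trac, S100b, Krt18, Cd79a and Cd79b), and barcodes with these were removed, so the low totals are partly fixed by the rule. Of 7 lymphatic endothelial genes, Prox1, Mmrn1, Reln and Stab2 were at 0 in all 3 libraries, Lyve1 was 0 by the rule, and the list summed to 6.41, 16.3 and 0 CPM, mostly Sox18. Blood endothelial genes summed to 8.98, 1.36 and 0 CPM, with Cdh5 and Kdr at 0 everywhere. T cell genes gave 7.69, 5.42 and 0 CPM, Schwann cell genes 0, 1.36 and 0 CPM, and epithelial genes 0, 0 and 10.0 CPM, the latter from a single Epcam UMI. Myeloid genes gave 89.8, 8.13 and 0 CPM (Lyz2 the most abundant in 2-IC replicate 1 at 57.7 CPM, and level with Cd68 in replicate 2) against 132, 33.3 and 189 CPM in the other barcodes. B cell genes summed to 449, 157 and 60.1 CPM, of which Igkc made 367, 148 and 40.0 CPM. Ms4a1 was at 0 in all libraries, Cd79a and Cd79b were 0 by the rule, and the other barcodes held more (852, 409 and 81.7 CPM). Perivascular genes were abundant on both sides (1096, 835 and 891 CPM against 1049, 1019 and 967 CPM, with Rgs5 or Acta2 the most abundant), and adventitial genes stood at 200, 81.3 and 110 CPM, mostly Ly6a, with Pi16 at 0. Among stromal markers, the interfollicular gene Ch25h stood at 24.4, 31.2 and 0 CPM against 35.8, 32.2 and 26.0 CPM in the other barcodes (not called), and medullary genes summed to 727, 663 and 581 CPM against 1451, 1525 and 755 CPM. T zone reticular cell genes included Ccl19, Ccl21a and Il7 (given below). Of the others, Grem1 stood at 131, 153 and 110 CPM against 97.5, 133 and 80.6 CPM. Bst1 stood at 305, 271 and 260 CPM against 243, 170 and 266 CPM, so it was not higher in the 1-IC library. The part of all these transcripts in the differences below was not tested.

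Against all other retained barcodes, 109 genes were higher in TBRC-like cells (1.15% of 9481 tested) and 238 were lower (2.51%), together 3.66%. Genes with no overlap between the 3 TBRC-like and the 3 other library values made 10.6% of those tested. The other barcodes include FDCs and Tnfsf11+ cells, which the rule kept out of the gate, so the genes those cells express start from unequal footing. The counts moved with the settings. They were 15 and 47 without the library term and 8 and 54 after thinning to 2000 UMIs. Thinning left 4704 genes to test, among them 86 of the 109 higher and 145 of the 238 lower genes. The counts were 58 and 188 without 2-IC replicate 1, 85 and 143 without 2-IC replicate 2, and 259 and 339 without the 1-IC library.

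**Figure D2:**
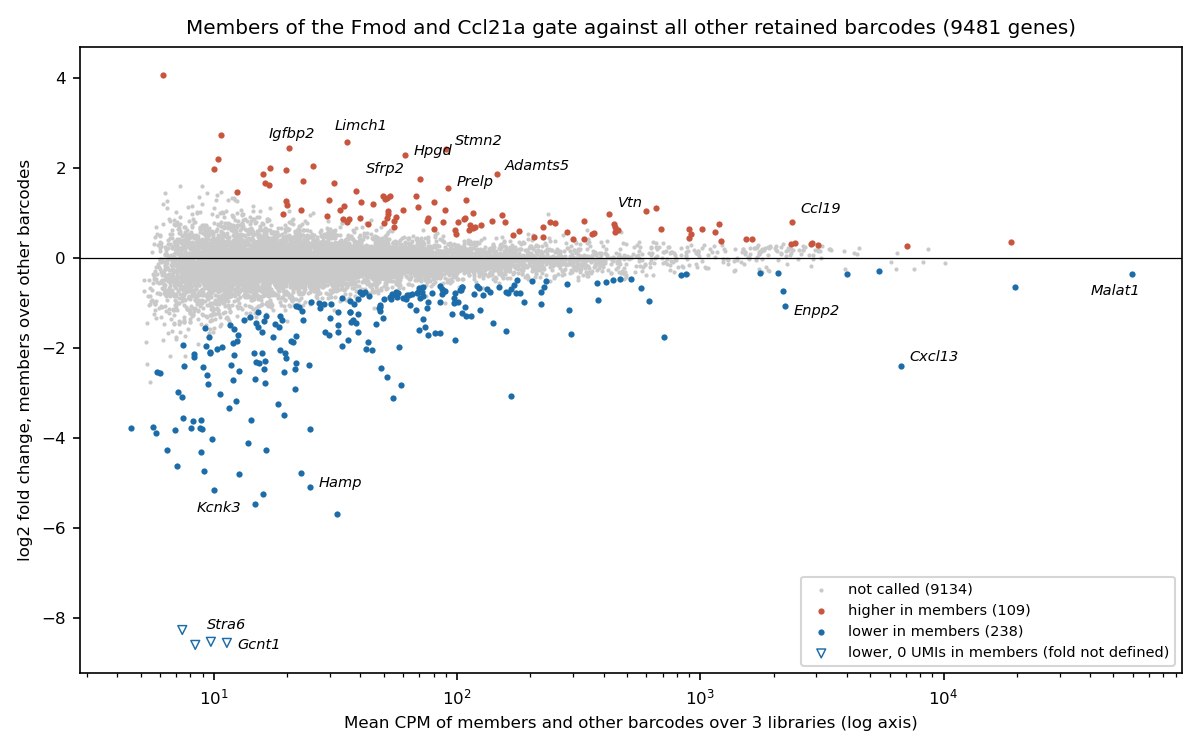
Each point is 1 of 9481 genes, with the mean CPM over TBRC-like cells ("members") and other barcodes on the x axis (log scale) and the log2 fold change on the y axis; red marks the 109 genes higher in TBRC-like cells, blue the 238 lower, and open triangles genes with 0 UMIs in TBRC-like cells, whose height is set by the fit and is no estimate. Stmn2, Adamts5, Hpgd and Limch1 stand above the cloud and Cxcl13 is the abundant gene farthest below it.

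Beyond the markers, the genes with the largest rise came from several classes. Limch1, encoding a protein that activates non-muscle myosin, stood at 42.3, 79.9 and 60.1 CPM against 7.41, 12.4 and 9.88 CPM (log2 fold change 2.57 ± 0.22, adjusted p = 2.49e-06). Hpgd, encoding the enzyme that inactivates prostaglandins, stood at 103, 73.2 and 130 CPM against 24.5, 11.6 and 23.9 CPM (2.29 ± 0.19, adjusted p = 1.57e-06). Neither gene's groups overlapped, and the 1-IC library was within or above the range of the 2-IC libraries for both. Igfbp2, a carrier of insulin-like growth factors (IGFs), stood at 59.0, 25.7 and 20.02 CPM against 10.4, 5.47 and 1.56 CPM (2.44 ± 0.29, adjusted p = 6.35e-05), the 1-IC value resting on 2 UMIs. In 2-IC replicate 2 a single cell held 10 of its 19 UMIs. Bmp4, a bone morphogenetic protein, stood at 39.8, 23.0 and 20.02 CPM against 7.01, 8.92 and 3.64 CPM, and its call was lost without 2-IC replicate 1 (adjusted p = 0.203). Sfrp2, a secreted modulator of Wnt signalling, stood at 150, 121 and 50.1 CPM against 39.1, 36.7 and 25.5 CPM (1.76 ± 0.17, adjusted p = 5.9e-06). The remaining genes of this set were Nfasc (2.05), an axonal adhesion molecule, the matrix gene Hmcn2 (1.95) and Vsnl1 (1.66), a neuronal calcium sensor.

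Among the lower genes was Cxcl13. It stood at 1767, 2054 and 2082 CPM in TBRC-like cells against 10264, 5700 and 18359 CPM in the other barcodes, without overlap (log2 fold change -2.40 ± 0.19, adjusted p = 1.48e-06). The values of TBRC-like cells lay close together across libraries, whereas those of the other barcodes spread widely. In 2-IC replicate 2, however, a single cell held 898 of the 1516 Cxcl13 UMIs. Against barcodes without Cr2, Madcam1 or Tnfsf11 the difference was -1.21 (adjusted p = 0.00015), so part of it goes with the cells the rule removed. The largest falls were of genes almost absent from TBRC-like cells. Gcnt1, encoding a glycosyltransferase of O-glycan branching, had no UMI in any TBRC-like cell against 17.3, 15.6 and 34.9 CPM, which puts it at least 10.3-fold lower over all libraries. Most of its transcripts were in Cr2+ cells, which the rule kept out (125, 144 and 187 CPM). Barcodes without Cr2, Madcam1, Tnfsf11, Fmod or the Ccl21a level held 2.99, 3.27 and 1.88 CPM, under the floor of TBRC-like cells in each library, so no difference from them was detectable at this depth. Fcgr2b and Fcer2a, the Fc receptors of FDCs, gave 1 and 2 UMIs in all (-5.25 and -4.12), and were likewise high in Cr2+ cells (means of 218 and 198 CPM) and low in those barcodes (11.6 and 2.17 CPM). Kcnk3, a potassium channel gene, gave 1 UMI (-5.46, and -5.05 against barcodes without Cr2, Madcam1 or Tnfsf11, adjusted p = 0.000137) and Hamp, encoding hepcidin, 2 UMIs (-5.09). A230065H16Rik, Art2a-ps, Gm42031, Mansc4 and Syt1 complete this set, with 1 to 3 UMIs each. Syt1 alone overlapped, since its 3 UMIs were all in the 1-IC library, and it lost its call with DESeq2 (adjusted p = 0.768) and without the library term (0.104).

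The secreted signals of the T zone were partly higher. Of 13 genes for T zone chemokines and cytokines, all tested, 5 rose and 2 fell, with a median log2 fold change of 0.35 beside -0.11 over all genes tested, of which 3.66% were called. Against barcodes without Cr2, Madcam1 or Tnfsf11 the median was 0.15 beside -0.042. Il7, the survival factor of naive T cells, stood at 160, 145 and 110 CPM against 75.5, 85.4 and 68.7 CPM (0.88 ± 0.14, adjusted p = 0.00111), and Tnfsf13b, encoding BAFF, a survival factor of B cells, at 318, 324 and 290 CPM against 184, 182 and 147 CPM (0.80 ± 0.12, adjusted p = 0.000437). Both separated the groups fully. Cxcl12 was abundant on both sides (7981, 7575 and 8170 CPM against 7341, 6242 and 5316 CPM), and its small rise (0.27, adjusted p = 0.0496) was lost under 9 of 16 alternatives. It turned to -0.18 after thinning, where the median of all genes moved from -0.11 to -0.29. Medians under an alternative are over the genes still tested there, after thinning 4704 in place of 9481. Ccl2 rose (0.57), a call lost against barcodes without Cr2, Madcam1 or Tnfsf11 (0.28, adjusted p = 0.489), while Il6 and Kitl, encoding stem cell factor, fell. Il33, Il15, Cxcl16, Il34, Csf1 and Flt3l did not pass the test. Of 9 tested genes of follicles and oxysterol metabolism (10 listed), Tnfsf13b rose and Cxcl13, Mfge8, Enpp2 and Coch fell (median -0.42, or -1.09 after thinning and 0.021 against barcodes without Cr2, Madcam1 or Tnfsf11). Enpp2, encoding autotaxin, stood at 1632, 1363 and 1462 CPM against 3180, 3121 and 2681 CPM without overlap (-1.08 ± 0.09, adjusted p = 1.48e-06). Mfge8 and Clu, both abundant in FDCs, stood at -0.36 (adjusted p = 0.0311) and -0.26 (adjusted p = 0.363, not called) and were higher in TBRC-like cells (0.57 and 0.48) when barcodes with Cr2, Madcam1 or Tnfsf11 were left out of the comparison.

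Calls among matrix genes went both ways, and the class as a whole was not tested. Of 7 tested small leucine-rich proteoglycans beside Fmod (8 listed), Prelp, Ogn and Bgn rose and Lum fell (median 0.30). This median was 0.20 after thinning and 0.075 against barcodes without Cr2, Madcam1 or Tnfsf11. Prelp, which anchors basement membranes to collagen, stood at 126, 133 and 170 CPM against 39.4, 55.6 and 27.6 CPM (1.55 ± 0.18, adjusted p = 5.01e-05). Lum, encoding lumican, a close relative of fibromodulin, stood at 173, 195 and 60.1 CPM against 374, 331 and 189 CPM (-1.02 ± 0.14, adjusted p = 0.00021). The groups overlapped for Lum but not for Prelp. Dcn, encoding decorin, was the most abundant of this class at 7623, 6550 and 6938 CPM and was not called (-0.26, adjusted p = 0.136). Against barcodes without Cr2, Madcam1 or Tnfsf11 Dcn was lower (-0.56, adjusted p = 0.000335), and Bgn (0.28) and Ogn (0.47) lost their calls. None of 13 tested collagen genes (16 listed) passed the test, where 3.66% of all genes did (median 0.03, or -0.20 after thinning and -0.19 against barcodes without Cr2, Madcam1 or Tnfsf11), Col1a2 being the most abundant at 1722, 1694 and 1452 CPM. Of 20 tested matrix glycoproteins (22 listed), Vtn, Thbs1 and Fbln2 rose and Sparcl1, Fbln1 and Efemp1 fell (median -0.10). Vtn, encoding vitronectin, stood at 817, 363 and 551 CPM against 372, 230 and 198 CPM (0.98 ± 0.13, adjusted p = 0.00019), higher within each library though 2-IC replicate 2 overlapped the other barcodes of replicate 1. Of 17 tested proteases and inhibitors (18 listed), Adamts5 rose and Mmp2 fell (median -0.02).

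The signalling lists are given next. Lists of 5 to 13 genes hold few or no calls at the 3.66% called among all genes, so a count of 0 in them is not read as stability. Among 14 tested BMP and Wnt modulators (18 listed), Bmp4 and Sfrp2 rose whereas Id1, Id2, Id3, Dkk2 and Wif1 fell (median -0.09). Id genes are textbook targets of BMP signalling, and Id3 stood at 674, 287 and 270 CPM against 1001, 545 and 924 CPM (-0.95 ± 0.15, adjusted p = 0.000899), lower within each library with overlap between libraries. Of 6 tested IGF genes (8 listed), Igfbp2, Igfbp3 and Igfbp4 rose (median 0.34), but against barcodes without Cr2, Madcam1 or Tnfsf11 Igfbp3 (0.33, adjusted p = 0.178) and Igfbp4 (0.12, adjusted p = 0.797) lost their calls. Of 5 tested prostaglandin genes (9 listed), Hpgd rose and Ptges, encoding a prostaglandin E synthase, fell (11.5, 21.7 and 20.02 CPM against 36.9, 33.1 and 41.1 CPM, median of the list -1.01). Of 10 tested axon-associated genes (16 listed), Stmn2 rose and Nrp2 and Slit3 fell (median -0.30, turning to 0.13 against barcodes without Cr2, Madcam1 or Tnfsf11). Of 8 tested contractile genes (11 listed), Tagln rose and Myh11 fell (0.18), and of 13 adhesion and surface genes (15 listed) Ncam1 alone changed, downward (0.06). Atf3 and Klf2 rose among 13 immediate early genes (-0.01), Hspa1b fell among 8 heat shock genes (-0.01), and Ccl2 and Ccl7 rose and Il6 fell among 10 of 12 inflammatory chemokines and cytokines (0.13). The median of the inflammatory list was 0.34 after thinning and turned to -0.13 against barcodes without Cr2, Madcam1 or Tnfsf11. C4b, a component of the classical complement pathway, rose (0.57, adjusted p = 0.000531) but lost its call against barcodes without Cr2, Madcam1 or Tnfsf11 (0.28, adjusted p = 0.206). Stra6 fell among 6 of 11 retinoid genes (-0.26), and Malat1 and Meg3 among 5 of 6 nuclear RNAs (-0.37), Malat1 losing its call against barcodes without Cr2, Madcam1 or Tnfsf11 (-0.25, adjusted p = 0.166). No gene passed the test among the 13 lymphotoxin, TNF and NF-kB genes (-0.21), 10 interferon-induced genes (0.02), 6 of 9 Notch genes (0.04) and 5 MHC class II genes (-0.37, or -0.93 after thinning and -0.53 against barcodes without Cr2, Madcam1 or Tnfsf11), and none of 4 atypical chemokine receptors was abundant enough to be tested. Malat1, a nuclear RNA, took a median 2.91%, 5.43% and 6.94% of UMIs in TBRC-like cells against 3.12%, 6.10% and 8.07%, with mitochondrial shares of 2.82%, 2.77% and 1.29% against 2.79%, 2.84% and 1.43%.

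**Figure D3:**
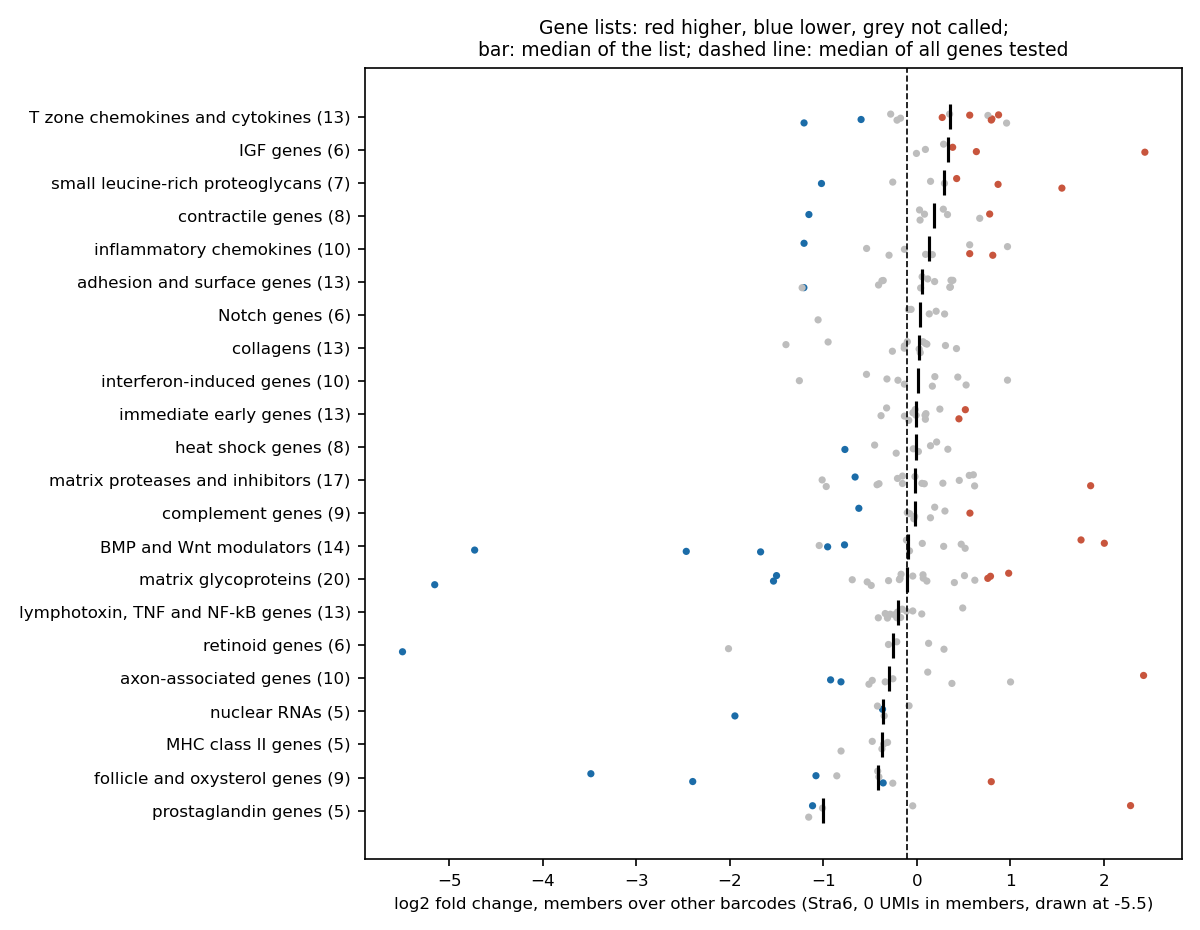
Each row is a gene list (number of genes tested in brackets) and each point a gene, at its log2 fold change between TBRC-like cells ("members") and other barcodes; red genes were higher, blue lower and grey not called. Black bars mark list medians and the dashed line the median of all genes tested (-0.11): most lists straddle it, and the T zone list holds the most red points (5 of 13) while the IGF list holds 3 of 6.

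To see where TBRC-like cells differ from other stromal populations, they were set against 3 gates that do not overlap. These were Cr2+ cells (230, Cr2 being a marker of FDCs), Tnfsf11+ cells without Cr2 or Madcam1 (593), and Inmt+ cells (703). The Inmt+ cells (Inmt being a marker of medullary reticular cells) lacked Cr2, Madcam1 and Tnfsf11 and were not TBRC-like. Inmt itself was not excluded from TBRC-like cells. Their median depth was 6037.5, 16914 and 7199.5 UMIs for Tnfsf11+ cells, 4513, 13286 and 5861.5 for Inmt+ cells and 5166, 10091 and 4836.5 for Cr2+ cells. Of 8421 genes tested, 118 (1.4%) were higher and 157 (1.86%) lower than in Tnfsf11+ cells (3.27% in all). Against Inmt+ cells 89 (1.06%) were higher and 133 (1.58%) lower (2.64% in all), and against Cr2+ cells 862 (10.2%) and 696 (8.27%, 18.5% in all). Without TMM scaling the last split turned to 679 and 867, with the median of all genes shifted by -0.11. Without 2-IC replicate 1 the counts were 25 and 53, 21 and 50, and 387 and 422, and without 2-IC replicate 2 they were 68 and 68, 41 and 59, and 557 and 577. Without the library term 14 and 25, 14 and 14, and 258 and 402 remained.

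Stmn2, Adamts5, Limch1, Igfbp2, Hpgd, Bmp4, Sfrp2, Ccl19 and Vtn were higher in TBRC-like cells than in each of the 3 gates. Stmn2 averaged 150 ± 74.3 CPM (SD, n = 3) in TBRC-like cells, 13.1 ± 11.3 CPM in Tnfsf11+ cells, 19.6 ± 8.57 CPM in Inmt+ cells and 38.4 ± 18.8 CPM in Cr2+ cells, for log2 fold changes of 3.40, 2.94 and 2.42 (adjusted p = 4.2e-07, 9.52e-06 and 7.13e-05). Adamts5 averaged 232 ± 23.1, 44.6 ± 13.9, 87.1 ± 45.3 and 25.9 ± 17.0 CPM in the same order (2.40, 1.33 and 3.05). Hpgd averaged 102 ± 28.5, 14.8 ± 4.26, 28.1 ± 9.40 and 6.96 ± 7.30 CPM (2.76, 1.81 and 3.55). Ccl19 averaged 3076 ± 780, 1669 ± 356, 1816 ± 700 and 633 ± 119 CPM, a modest difference from both reticular gates (0.85 and 0.74) and a wider one from Cr2+ cells (2.33). Limch1 was the gene in which another gate came near, since Madcam1+ cells, which were not tested against, reached 40.7 ± 20.6 CPM beside 60.8 ± 18.8 CPM in TBRC-like cells.

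Cxcl13 ordered the populations from 1968 ± 175 CPM in TBRC-like cells through 3842 ± 1461 in Inmt+ cells, 7063 ± 5337 in the 475 barcodes in none of these gates, 9177 ± 4002 in Tnfsf11+ cells and 21504 ± 5682 in Madcam1+ cells to 35604 ± 17087 CPM in Cr2+ cells. A single TBRC-like cell held 898 of the 1516 Cxcl13 UMIs of 2-IC replicate 2, so the SD of 175 CPM rests partly on it. TBRC-like cells were lower than Inmt+ (-0.85, adjusted p = 0.0393), Tnfsf11+ (-2.02) and Cr2+ cells (-3.89). The libraries of TBRC-like and Inmt+ cells did not overlap (2392 CPM the lowest in Inmt+ cells), nor did those of Tnfsf11+ and Madcam1+ cells, while the other neighbours in this order did. Other large changes depended on the partner. Aldh3a1, an aldehyde dehydrogenase gene, and Pdlim3, a muscle LIM protein gene, were higher than in Inmt+ cells (3.14 and 2.49) and Tnfsf11+ cells (1.82 and 1.77), while against Cr2+ cells Pdlim3 was lower (-1.19) and Aldh3a1 not called (-0.63). Apol11b and Lgi2 were among the largest rises over Cr2+ cells (4.42 and 3.80). Kcnk3 and Sparcl1 were among the largest falls against both reticular gates, with 1 UMI each in TBRC-like cells, together with Hamp, Mansc4 and 6530403H02Rik against Tnfsf11+ cells and by Car3, Lsamp and Cpe against Inmt+ cells. Gcnt1, Stra6, Ephx4, Megf6 and Prr15 were among those against Cr2+ cells, each at 0 UMIs in TBRC-like cells. Bgn, Cxcl12 and Dcn differed from Cr2+ cells (1.55, 1.63 and 1.32) and passed the test against neither reticular gate.

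**Figure D4:**
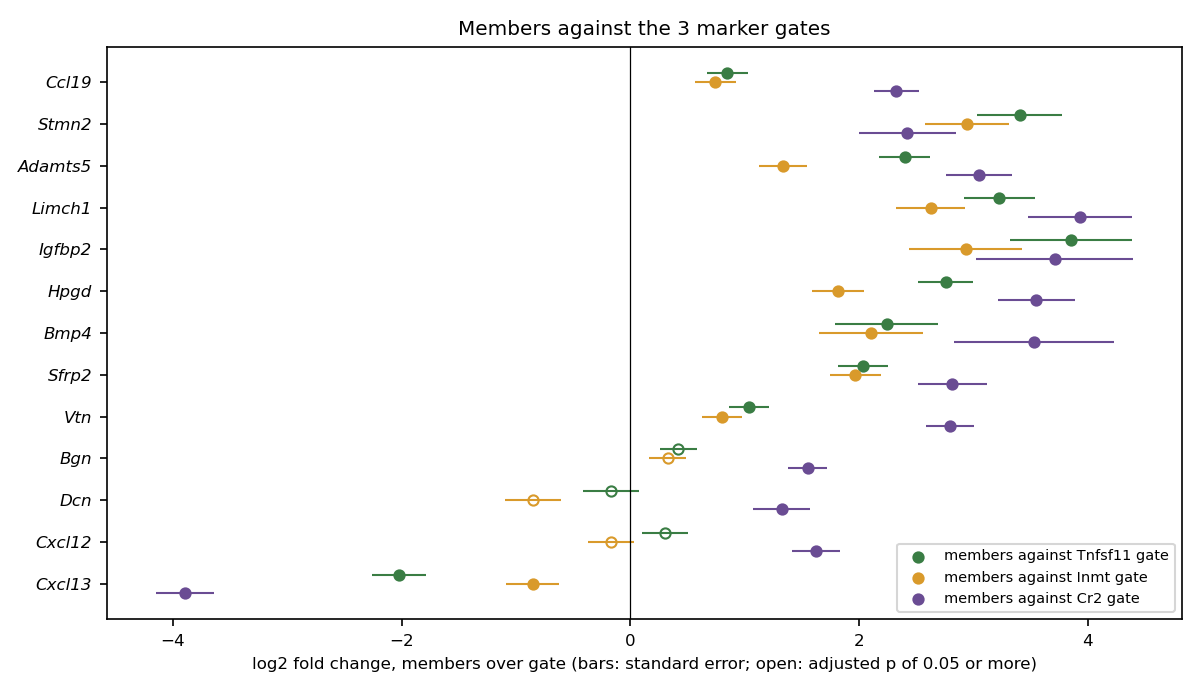
Points are log2 fold changes of TBRC-like cells ("members") over Tnfsf11+ (green), Inmt+ (yellow) and Cr2+ cells (purple) for 13 genes, with standard errors as bars and open symbols where the adjusted p was 0.05 or more. The genes from Ccl19 to Vtn lie right of 0 against all 3 gates, Cxcl13 lies left of 0 against all 3, and Bgn, Dcn and Cxcl12 are filled only against Cr2+ cells.

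The gate joins 2 requirements, and the barcodes that met only one of them show what each brings. Beside the 159 TBRC-like cells, 293 barcodes without Cr2, Madcam1 or Tnfsf11 met the Ccl21a threshold with no Fmod UMI, 97 carried Fmod with low Ccl21a, and 788 met neither. Barcodes with Ccl21a alone were shallower (medians of 4254, 9583 and 5979 UMIs), so some of them may lack an Fmod UMI for want of depth. Against them, 18 genes were higher in TBRC-like cells (0.297% of 6051 tested) and 26 lower (0.43%). Adamts5 was among the higher genes (228, 256 and 210 CPM against 93.6, 37.4 and 89.8 CPM, log2 fold change 1.62 ± 0.22, adjusted p = 8.48e-07), as were Hpgd (103, 73.2 and 130 against 26.7, 27.2 and 37.4 CPM, 1.78 ± 0.27, adjusted p = 2.15e-05), Limch1 (1.87), Ogn (1.30), Prelp (1.16), Acta2 (1.01) and Stmn2 (0.94, adjusted p = 0.0197). Cxcl9 had the largest rise (2.37, adjusted p = 6.22e-05), with most of its UMIs in single cells, and Id3 (-0.88), Cxcl1 (-0.75) and Ptgs2 (-1.47) were lower. The gap of Cxcl1 was mostly in 2-IC replicate 2 (1096, 663 and 1121 CPM against 1312, 2320 and 1137 CPM). In the 1-IC library Cxcl9 went the other way (70.1 CPM in TBRC-like cells against 266 CPM), as did Ptgs2 (90.1 against 56.1 CPM), whose largest gap was in 2-IC replicate 2 (28.5 against 384 CPM). Ccl19 (0.11 ± 0.13, adjusted p = 0.994), Vtn (0.13 ± 0.16) and Igfbp2 (0.12 ± 0.33) did not pass, and nor did Cxcl13 (-0.36 ± 0.18, adjusted p = 0.791). Sfrp2 (0.75, adjusted p = 0.162), Nfasc (0.81, adjusted p = 0.731), Hmcn2 (1.05, adjusted p = 0.693) and Vsnl1 (0.55, adjusted p = 0.983) did not pass either. In mean level Adamts5 was close to TBRC-like cells where Fmod was present alone (197 ± 65.8 CPM), whereas Ccl19 was close to them where Ccl21a was present alone (2858 ± 978 CPM). The mean levels of Stmn2, Hpgd and Limch1 were lower in both single-gene sets than in TBRC-like cells, at 88.9, 30.4 and 14.7 CPM with Ccl21a alone and 31.1, 36.3 and 29.2 CPM with Fmod alone. In the 1-IC library, though, Stmn2 was higher with Ccl21a alone (101 CPM) than in TBRC-like cells (70.1 CPM). Ogn went highest with Fmod alone (198 ± 37.5 CPM against 148 ± 41.6 in TBRC-like cells). Among names outside the rule for named genes, picked here for their values, Cpz (1.67), encoding a carboxypeptidase, and Ltc4s (1.28) were higher, and Ptn (-1.29), Mt1 (-1.90), Mt2 (-2.32), Stc1 (-2.11) and Hamp2 (-2.34) lower than with Ccl21a alone. The metallothionein genes Mt1 and Mt2 were high mainly in 2-IC replicate 2 of the Ccl21a-alone set (1811 and 690 CPM).

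**Figure D5:**
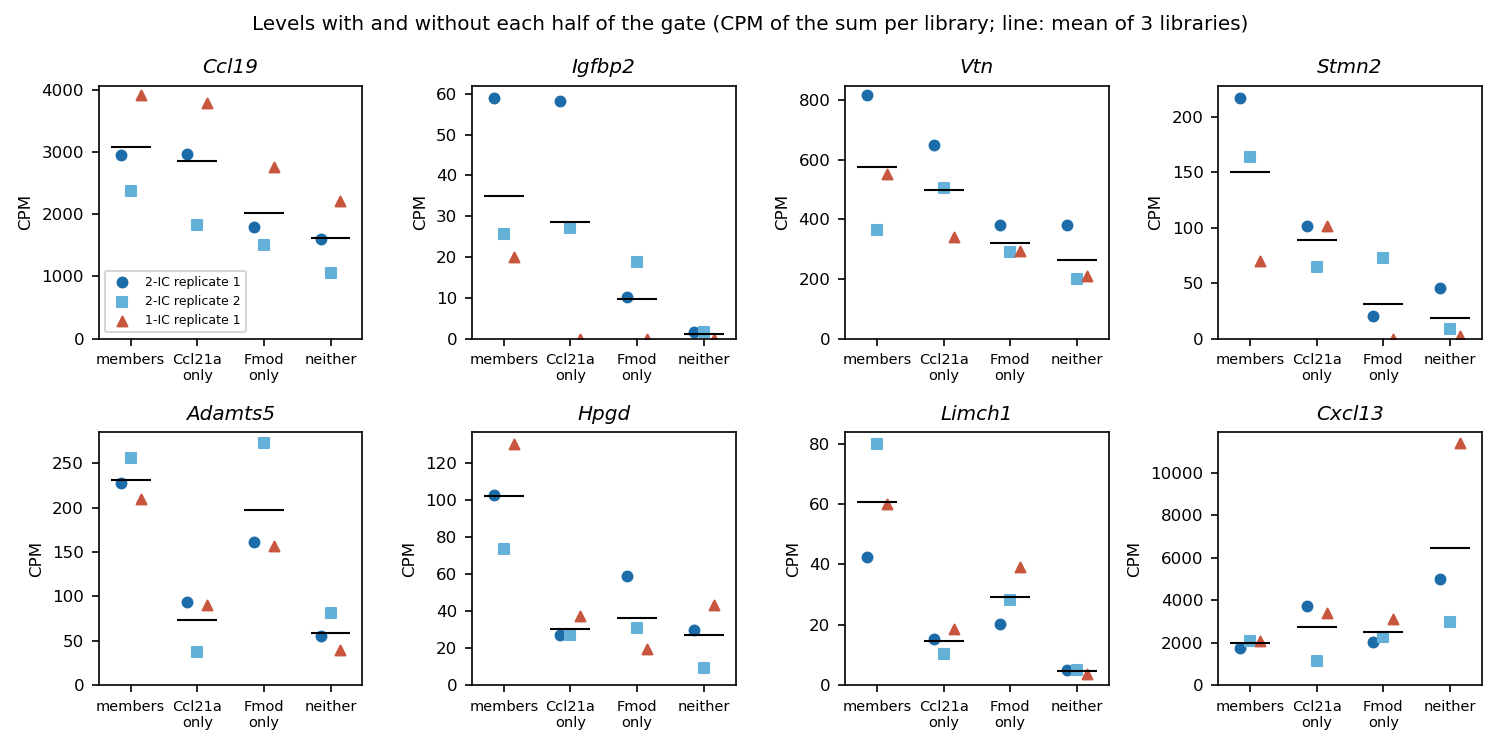
CPM of 8 genes in TBRC-like cells ("members"), barcodes with Ccl21a but no Fmod, with Fmod but low Ccl21a, and with neither; symbols are the 3 libraries and lines their means, on linear axes from 0. Adamts5 is high wherever Fmod is present, Ccl19 wherever Ccl21a is, Igfbp2 likewise in the 2-IC libraries but at 0 with Ccl21a alone in the 1-IC library, and Stmn2, Hpgd and Limch1 have their highest mean where both are.

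TBRC-like cells were not uniform. Every cell carried Ccl19, at a library median of 0.230%, 0.210% and 0.239% of UMIs, and Ccl19 tended to follow Ccl21a across cells of a library (Spearman rho 0.26, 0.42 and 0.13 over 108, 38 and 13 cells, given as a description of cells that share a library). Cxcl13 had medians of 0.102%, 0.0291% and 0.142%, with 5, 3 and 1 cells at 0 and single cells up to 1.94%, 2.45% and 0.967%. Stmn2 UMIs were seen in 28, 13 and 2 cells, which does not bound how many cells express it at this depth, and the cell with most held 39 of 169, 43 of 121 and 4 of 7 UMIs. Adamts5 was spread over 55, 29 and 6 cells, with 5.62%, 9.52% and 57.1% of its UMIs in the cell with most. Hpgd was seen in 39, 15 and 7 cells, and the cell with most held 7 of 80, 20 of 54 and 6 of 13 UMIs. Limch1 was seen in 24, 19 and 5 cells.

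Expressed as the share of cells with at least 1 UMI, averaged over libraries, Stmn2 reached 25.2 ± 9.44% of TBRC-like cells (SD, n = 3). In other barcodes it reached 5.71 ± 2.38%, and in B cell barcodes, which should lack it, 0.207 ± 0.359%. B cell barcodes were those with Cd79a and Cd79b and no UMI of Col1a1, Col1a2 or Col3a1. The collagen condition leaves out barcodes holding free stromal RNA, so their shares can understate the level of free RNA. With every barcode thinned to 2000 UMIs, the Stmn2 shares were 17.5 ± 2.89% of TBRC-like cells and 2.89 ± 1.03% of other barcodes. Thinning left out 2, 1 and 0 TBRC-like cells and 217, 44 and 55 others. Adamts5 reached 57.8 ± 16.2%, or 28.2 ± 6.23% thinned against 10.2 ± 1.04% of other barcodes, with B cell barcodes at 0.741 ± 1.28% before thinning. Tnfsf13b reached 86.3 ± 7.70% (45.4 ± 6.00% thinned, against 26.0 ± 3.78%) and Pdpn, the podoplanin gene used in the sort, 61.5 ± 6.90% (29.6 ± 2.27% thinned, against 15.6 ± 3.80%). Cxcl13 was seen in 93.3 ± 1.83% of TBRC-like cells, a share close to that of other barcodes (91.9 ± 1.62%), but at equal depth in 63.4 ± 10.4% against 86.6 ± 6.71%. B cell barcodes, for which the median depth was 3301, 5845 and 3141 UMIs, showed Cxcl13 in 35.0 ± 17.3%, so part of these Cxcl13 UMIs can be free RNA. Inmt, a medullary marker, was seen in 54.3 ± 10.2% of TBRC-like cells and in a lower share after thinning (24.7 ± 8.65%) than in other barcodes (41.5 ± 7.12%). The level of free RNA is not given here for Tnfsf13b, Pdpn and Inmt, so their shares are not read as shares of expressing cells.

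The 2-IC and 1-IC conditions can be set side by side only as values, because the 1-IC group is 1 library with 13 TBRC-like cells. Between the 2-IC replicates, 408 of 3359 genes at 50 CPM or more (12.1%) lay at least 2-fold apart, against 681 of 3529 (19.3%) between 2-IC replicate 1 and the 1-IC library and 1000 of 3769 (26.5%) between the latter and 2-IC replicate 2. At 200 CPM or more these counts were 69, 51 and 131, so replicate 1 was then no farther from the 1-IC library than from its own replicate. TBRC-like cells of the 1-IC library were at least 2-fold above both 2-IC libraries for 199 genes and below both for 161, and in 4 and 10 of these the other barcodes of the same libraries did likewise. Many of these genes rest on few UMIs in the 1-IC library, where 5 UMIs make 50.1 CPM. The number of genes compared was not counted, so 199 and 161 are not read as a result about TBRC-like cells. The 1-IC sums held 99881 UMIs in TBRC-like cells and 1922359 in other barcodes. Their counting spread is thus unequal, and whether the changes are particular to TBRC-like cells was not tested. Ifi27l2a, an interferon-induced gene, had the most UMIs of the higher genes (289, 43.4 and 821 CPM), followed by the small heat shock gene Hspb1 (118, 46.1 and 350 CPM) and, with equal UMIs, by Pdcd4 and Msc (the latter at 89.8, 78.6 and 260 CPM). The mitochondrial transcripts mt-Rnr2 (9622, 10911 and 3554 CPM), mt-Rnr1 and mt-Nd3 were lower in the 1-IC library in TBRC-like cells and other barcodes alike. Cxcl9 and Cxcl10, interferon-induced chemokines that bind CXCR3, stood at 386, 379 and 70.1 CPM and at 180, 533 and 0 CPM. For Cxcl9 a single cell held 227 of 301, 152 of 280 and 5 of 7 UMIs, and the 0 of Cxcl10 allows up to 30.0 CPM. Among the marker genes, Ccl19 was highest in the 1-IC library and Stmn2 lowest. Adamts5 and Cxcl13 varied by 23.1 and 175 CPM (SD) around 232 and 1968 CPM, but both sums lean on single cells. A single cell held 12 of 21 Adamts5 UMIs in the 1-IC library and 898 of 1516 Cxcl13 UMIs in 2-IC replicate 2. The median Cxcl13 share per cell was 0.102%, 0.0291% and 0.142%. Library, condition and cell number cannot be told apart here.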

How the data were processed

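The deposited files are matrices of whole UMI counts per gene and barcode, made by the authors with Cell Ranger (5.0.0 in the file headers, another version in the methods) from 10x 3' reads aligned to GRCm38. Replicates were not pooled, and no authors' cell annotation was used. Of 51912 genes, 98 symbols with several identifiers were summed by symbol. The gate was applied to the counts, and counts were summed per library over TBRC-like cells and over each comparison set (at least 5 barcodes). The members and gene lists were chosen with earlier results of these data known. Sums were tested with edgeR 4.0.16 (quasi-likelihood, TMM, filterByExpr, library as a block because sums of one library come from one cell suspension, Benjamini-Hochberg at 0.05 over all genes tested) in R 4.3.3, and DESeq2 1.42.0 was an alternative. The 18 genes of the rule and the copies of Ccl21a were counted but not tested. Genes named were those of the rule and the markers, the 10 largest rises and falls against other barcodes and the 5 largest against each gate (adjusted p under 0.05, same direction in 3 libraries, mean of at least 20 CPM on the higher side), and the 3 most abundant genes of each list, with others named as called members of a list. On simulated sums of 9503 genes for the comparison with other barcodes, edgeR recovered 90% of 200 genes with a log2 fold change of 2. It recovered 59.5% with one of 1. Of 191 and 121 genes called in these runs, 180 and 119 were changed genes. In a separate run in which no gene changed it called none. Scrublet (in scanpy 1.11.5) called 11, 17 and 11 doublets among retained barcodes (2, 0 and 0 TBRC-like cells), which were kept. Intervals and floors of 3 counts cover counting error only. Gene positions are from GENCODE vM21, and 79 of 105 named genes have a promoter in the RefSeq table. The 2-IC libraries carry short descriptions that conflict with their titles, and the titles were used. The result of 1 gene is not reported here.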

Additional observations from a re-analysis of the deposited data

Results flagged for a closer look

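Barcodes that passed the Fmod and Ccl21a gate but held a UMI of the 13 genes of other cell types numbered 54, beside the 159 cells kept. They entered no comparison other than the alternative without this filter. Of these, 34 held a single such UMI, and Cd79a was seen in 25, Cd79b in 23, Ptprc in 19, Trac and Ly6c1 in 8 each, Egfl7 in 2, and Lyve1, Hba-a1 and S100b in 1 each. Their median depth was 9537, 20971 and 15757 UMIs, beside 6436, 19361.5 and 6677 in the cells kept of the same libraries. Over all 3 libraries it was 11029 UMIs, beside 8329 in the cells kept.

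For 19 of the 105 named genes the log2 ratio of TBRC-like cells over other barcodes differed in sign between the conditions. It had one sign in both 2-IC libraries and the other in the 1-IC library. The share of all genes with such a split was not counted, so the number is not read as a result about these genes. The difference was not tested, since the 1-IC condition is 1 library. Cxcl9 stood out, at 1.87 and 1.00 in the 2-IC libraries and -2.04 in the 1-IC library, with most of its UMIs in single cells. Pdlim3 followed, at 0.86 and 1.07 against -1.14, the last from 3 UMIs. Higher ratios in the 1-IC library, against lower ones in the 2-IC libraries, were those of Cxcl1 (0.90), Notch3 (0.72), Egr1 (0.57), Ptgs2 (0.49), Htra1 (0.37), Col1a1 (0.32), Ngfr (0.23), Fos (0.20), Xist (0.17), Hspa1a (0.16), Dcn (0.13), Rarres2 (0.026) and Fstl1 (0.012). Lower ratios in the 1-IC library were those of Cyp26b1 (-0.93), Tpm1 (-0.71), Bst2 (-0.14) and Aldh3a1 (-0.091).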

How the results depend on the processing

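Counts of calls moved with the library block, depth, the libraries included and the contaminant filter. The main fits carry the library as a replicate block. With no replicate block the counts of genes higher and lower were 15 and 47 against other barcodes, 14 and 25 against Tnfsf11+ cells, 14 and 14 against Inmt+ cells and 258 and 402 against Cr2+ cells. Leaving out each library in turn gave 58 to 259 and 143 to 339, 25 to 117 and 53 to 150, 21 to 79 and 50 to 135, and 387 to 703 and 422 to 669 in the same order. Thinning to 2000 UMIs gave 8 and 54, 27 and 50, 17 and 45, and 284 and 218. Against other barcodes it left 4704 genes to test in place of 9481. DESeq2 called 64 and 65 against other barcodes, 149 higher and 84 lower than Tnfsf11+ cells (118 and 157 with edgeR, so that the larger count changed side) and 77 lower than Inmt+ cells. Without the filter on low counts 359 and 209 genes were lower than other barcodes and Inmt+ cells, and without TMM 173 were higher than other barcodes, all 109 main calls included. Without the filter on contaminant genes 381 and 1061 were called. Against barcodes without Cr2, Madcam1 and Tnfsf11, 154 were lower, and against those with Ccl21a and no Fmod 18 were higher and 26 lower. Leaving out barcodes shared between libraries, an alternative chosen after seeing the data, gave 131 and 248, with 108 and 226 of the main calls kept. The cause of these changes was not tested, beyond the fewer samples, UMIs or barcodes that an alternative holds by construction.

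Signs turned for single genes. Cxcl12 became -0.18 after thinning, where the median of all genes was -0.29. Against barcodes with Ccl21a and no Fmod Cxcl12 became -0.13, Mfge8 0.42, Ccl2 -0.12, Igfbp3 -0.039 and Igfbp4 -0.039. Mfge8 and Clu became 0.57 and 0.48 against barcodes without Cr2, Madcam1 and Tnfsf11, and Mfge8 0.083 without the contaminant filter. Leaving out each library in turn, Cxcl10 (0.17, not called) ranged from -1.05 without 2-IC replicate 2 to 0.63 without the 1-IC library, and Car3 against Cr2+ cells from -6.98 to 0.087, the latter without 2-IC replicate 1.

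Shares of TBRC-like cells in 2-IC replicate 1, 2-IC replicate 2 and all libraries were 4.97%, 5.78% and 4.94% after thinning and 4.63%, 6.48% and 4.72% without the contaminant filter. A Ccl21a threshold of 0.5% gave 5.37% in 2-IC replicate 1 and 5.53% in all, and at least 2 Fmod UMIs 3.21% and 3.92%. Genes 2-fold apart between libraries numbered 172, 194 and 400 at 100 CPM, 69, 51 and 131 at 200 CPM, and 1283, 1644 and 2156 after thinning (2-IC replicates, then replicates 1 and 2 against 1-IC). List medians after thinning were 0.057 (T zone), -1.09 (follicle), -0.23 (contractile), -0.16 (adhesion), -0.50 (lymphotoxin), -0.26 (heat shock), -0.19 (complement), -0.14 (retinoid), 0.13 (IGF), -0.27 (Notch) and -0.69 (nuclear RNAs), where all genes had -0.29. Against barcodes without Cr2, Madcam1 and Tnfsf11 they were 0.021 (follicle), -0.28 (BMP and Wnt), 0.13 (axon), -0.058 (lymphotoxin), -0.35 (immediate early), -0.089 (retinoid), -0.37 (prostaglandin), 0.086 (IGF) and -0.25 (nuclear RNAs). Fewer genes were tested in both alternatives, 4704 and 7695 of 9481 over all genes. In the T zone list 10 and 12 of 13 remained and in the retinoid list 3 and 4 of 6, so the medians are not over the same genes.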

Other observations

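Several genes outside the lists, picked for their values after these were seen, also differed between TBRC-like cells and all other retained barcodes. Dpt, encoding the matrix protein dermatopontin, averaged 914 CPM against 397 CPM (log2 fold change 1.11, edgeR adjusted p = 1.77e-05) and Lpl, encoding lipoprotein lipase, 813 against 380 CPM (1.05, adjusted p = 3.15e-05). Gas6, a ligand of TAM receptors that bridges them to apoptotic cells, averaged 1524 against 871 CPM (0.74, adjusted p = 6.41e-05), and Apoe, the most abundant of the higher genes, 21546 against 16285 CPM (0.36, adjusted p = 0.00238). Ptn, encoding the growth factor pleiotrophin, averaged 364 against 1052 CPM (-1.76, adjusted p = 3.90e-06), and Lepr, the leptin receptor gene, 453 against 691 CPM (-0.68, adjusted p = 0.000925). Pak3, encoding a kinase best known from neurons, had the largest rise of all called genes (4.05, adjusted p = 0.00375) at a mean of only 11.9 against 0.356 CPM.

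Rare populations limit what can be read here. Genes under about 20 CPM rest on few UMIs in TBRC-like cells, most of all in the 1-IC library with 99881 UMIs.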
